A study of Mus musculus with 8 samples.

Results

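HOX genes were listed in epididymal white adipose tissue of mice for all 4 gene clusters, and their levels are given here library by library. The genes were chosen by symbol alone (Hox, a cluster letter from a to d, and a number), which found 34 of the 18691 genes in the files. They were 11 HOXA genes on chromosome 6, 9 HOXB genes on chromosome 11, 7 HOXC genes on chromosome 15 and 7 HOXD genes on chromosome 2. RNA with poly(A) tails was sequenced from the fat pad beside the epididymis of C57BL/6J mice aged 16 weeks, in 4 libraries with the label wild type (WT) and 4 with the label Mrp4 knockout (Mrp4-/-). Mrp4 is the transporter MRP4, a pump for cyclic nucleotides and other organic anions that is encoded by Abcc4. The sources used here do not say how the Mrp4 allele was made or whether each library came from its own mouse, so the p-values cover the spread among the 8 libraries, which may be technical. Levels are FPKM (fragments scaled to transcript length and to the fragments of the library), and a gene not listed in a library was taken as 0.

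HOX genes encode homeodomain transcription factors that give cells their position along the body axis. Within a cluster the genes lie in the order in which they are used from head to tail, so that low numbers stand for anterior and high numbers for posterior positions, and genes with the same number in different clusters are paralogues. Adult fat keeps part of this code. In mice, Hoxa5 and Hoxc8, together with the orphan receptor Nr2f1, are known from fat inside the abdomen, while Hoxc9, Tbx15, Shox2 and En1 are known from fat under the skin. HOX proteins bind DNA with cofactors of the TALE class (PBX, MEIS and PKNOX), and their clusters are kept silent by Polycomb proteins and open by Trithorax proteins. A set of HOX levels therefore serves as a record of where a fat sample came from, and here it bears on whether both groups sampled the same depot.

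The label of the knockout was not borne out by the level of its gene. Abcc4 was listed at 3.59, 3.33, 3.81 and 3.33 FPKM in the WT libraries and 3.54, 3.68, 3.89 and 3.31 FPKM in the KO-labelled libraries. The groups overlapped, with a log2 fold change of -0.05 ± 0.08 (SE; adjusted p = 0.692 by the quasi-likelihood test of edgeR, with the Benjamini-Hochberg method). A gene total does not show whether an exon is missing, and the sources used here do not name the part of the gene that was removed. Libraries are therefore called WT and KO-labelled. All fold changes are KO-labelled against WT, on the log2 scale, with the SE after the sign ±.

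Expected counts summed to 14064681 to 14700114 per library. Over all genes, 14257 had enough counts to be tested, and 18.3% of them passed an adjusted p of 0.05, with 10.2% higher and 8.05% lower in the KO-labelled libraries. Of the calls, 55.9% were higher, and this share was 74.1% when libraries were scaled by their total alone. The KO-labelled libraries also carried more RNA of liver type: the 10 hepatocyte markers summed to 38.9 to 94.99 FPKM (WT) and 686 to 1351 FPKM (KO-labelled), and all 10 rose. The 11 listed mesothelium markers summed to 208 to 329 FPKM (WT) and 101 to 228 FPKM (KO-labelled), with the groups overlapping. Whether either moves the HOX values was not tested. With the hepatocyte markers and the 200 most abundant genes left out of the scaling alone, the log2 fold changes were -0.64 for Hoxa3, -0.73 for Hoxa7 and -0.63 for Hoxc9, the HOX genes called below, and Hoxa6 passed as well (edgeR, adjusted p = 0.0498).

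The regulatory sequences of 2 members are shown because they have the highest mean level of their clusters and differ in make-up: Hoxa5 for HOXA, whose range overlaps that of Hoxa7, and Hoxd8 for HOXD. They were chosen after the values had been seen. Each is the 250 bases before the RefSeq start (GRCm38.p6), written 5′ to 3′ on the gene's strand, with every CG pair in capitals. The Hoxa5 window is chr6:52204588-52204837 on the minus strand, and the Hoxd8 window is chr2:74704365-74704614 on the plus strand.
Hoxa5: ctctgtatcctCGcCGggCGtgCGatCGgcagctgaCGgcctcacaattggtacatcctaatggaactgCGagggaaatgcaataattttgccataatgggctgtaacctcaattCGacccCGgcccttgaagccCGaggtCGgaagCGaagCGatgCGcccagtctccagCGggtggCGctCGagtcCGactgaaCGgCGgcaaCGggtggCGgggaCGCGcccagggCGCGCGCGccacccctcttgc
Hoxd8: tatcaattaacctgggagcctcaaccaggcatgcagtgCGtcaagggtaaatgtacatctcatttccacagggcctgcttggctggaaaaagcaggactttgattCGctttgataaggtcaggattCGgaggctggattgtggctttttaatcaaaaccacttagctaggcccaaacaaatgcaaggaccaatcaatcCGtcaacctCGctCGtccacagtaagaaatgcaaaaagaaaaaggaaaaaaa
The Hoxa5 window held 28 CG pairs and 63.6% G and C, and the Hoxd8 window held 6 CG pairs and 44.4%. In the 22 windows that matched 20 of the listed HOX genes the median was 12.5 CG pairs, with a range of 2 to 35, against a median of 6 in all 32851 promoter windows of the same length. The median share of G and C was 58.6% in the HOX windows and 52.4% in all windows.

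Each motif was searched on both strands, and none of the 4 contains another. TGATTGAT, a site of HOX and PBX proteins together, was in 2 of the 22 HOX windows (Hoxa2 and one of Hoxd11) and in 0.67% of all windows. TGACAG, the core bound by MEIS proteins, was in 2 (Hoxa2 and Hoxa3) and in 15.9% of all. CCAAT, the box bound by NF-Y, was in 12, the windows of Hoxa5 and Hoxd8 included, and in 33.8% of all. TATAAA, the TATA box, was in 3 (Hoxa10, Hoxb8 and Hoxd4) and in 12.4% of all. These are matches of letters and not sites of binding.

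Of the 34 members, 28 were listed in all 8 libraries, and 24 had a mean of at least 1 FPKM in one group or the other. Only 4 had a mean of at least 10 FPKM over the 8 libraries. Hoxc8 was the highest, at 53.9 ± 5.58 FPKM (SD, n = 8), followed by Hoxc6 at 30.2 ± 4.88, Hoxd8 at 12.0 ± 1.28 and Hoxc4 at 11.6 ± 1.70 FPKM. The lowest Hoxc8 library was above the highest Hoxc6 library, and the lowest Hoxc6 library was above the highest Hoxd8 library. The other 31 of 33 pairs of neighbours in the order of levels overlapped in range, so the order below Hoxc6 is not fixed by these data. Hoxc5 (9.75 FPKM), Hoxa5 (7.81 FPKM), Hoxa7 (7.35 FPKM) and Hoxd4 (7.05 FPKM) came next.

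The middle of the clusters carried most of the summed level. Paralogue groups 4 to 9 held 89.3% to 91.5% of the summed HOX FPKM of a library. Groups 1 to 3, the anterior genes, held 7.38% to 9.75%, and groups 10 to 13, the posterior genes, held 0.292% to 2.19%. HOXC genes alone held 53.7% to 60.2% of the summed level. Across the 34 members the mean levels of the 2 groups had a Spearman rho of 0.972. For single libraries, rho was 0.948 to 0.982 over the 16 pairs between groups, 0.963 to 0.983 over the 6 pairs within WT and 0.973 to 0.988 over the 6 pairs within the KO-labelled group. These are descriptions across genes, which share the library and its depth and are not independent replicates.

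**Figure D1:**
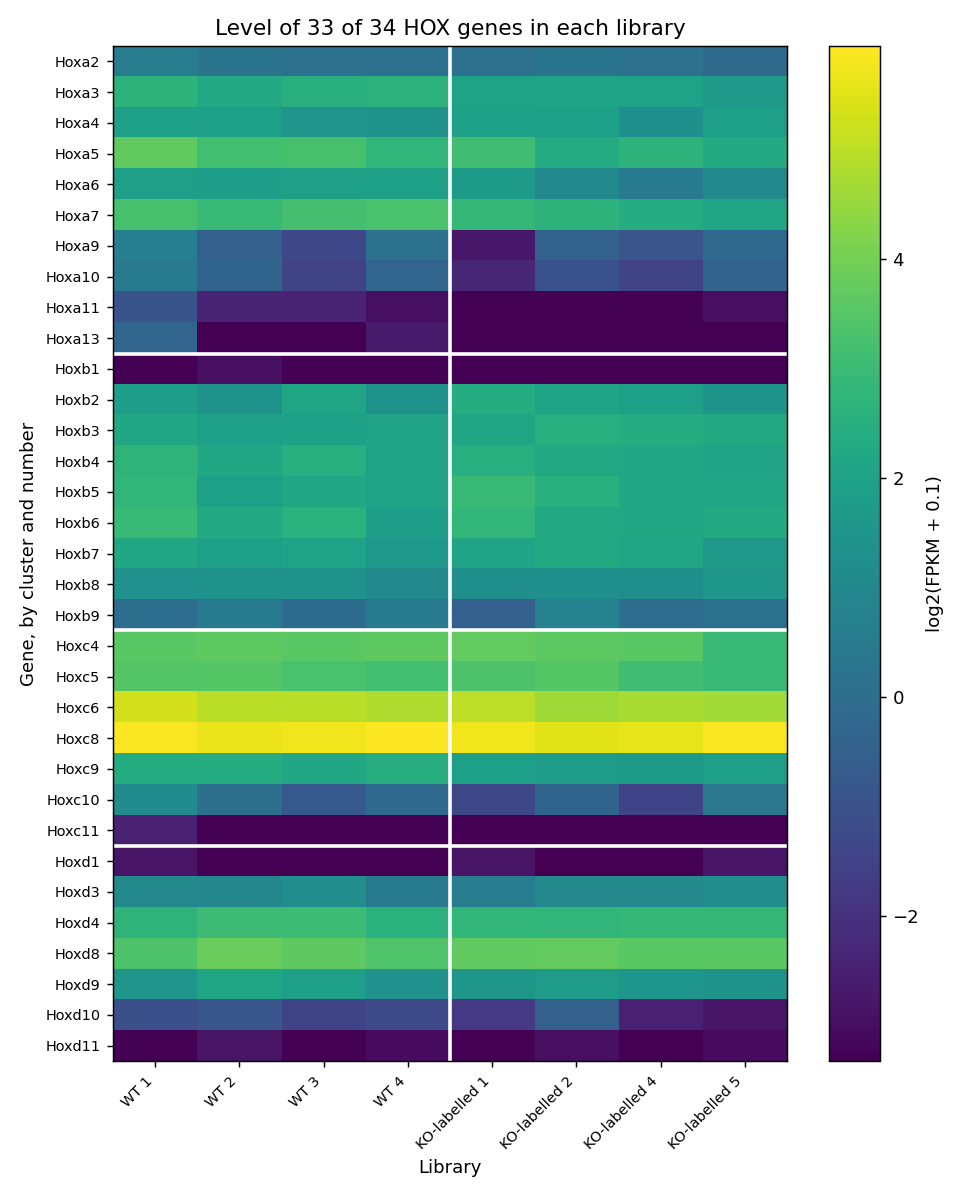
Level of 33 of the 34 HOX genes (rows, by cluster and number) in each of the 8 libraries (columns), as log2(FPKM + 0.1) on the colour scale. Hoxc8 and Hoxc6 are the brightest rows in every library, and Hoxa11, Hoxa13, Hoxb1, Hoxc11, Hoxd1 and Hoxd11 are dark in nearly all.

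Between the groups, 27 members were tested and 7 had too few counts (Hoxa11, Hoxa13, Hoxb1, Hoxc11, Hoxd1, Hoxd10 and Hoxd11). Of the 27, 24 were above the count minimum in all 8 libraries. Hoxa3, Hoxa7 and Hoxc9 fell in the KO-labelled libraries, and no member rose. The 3 that fell are 11.1% of those tested, against 8.05% of all genes tested, and the absence of rises stands against 10.2% of all genes. At an unadjusted p under 0.05, edgeR had 6 members lower and 1 higher, against 16.6% and 18.7% of all genes, and DESeq2, limma-voom and limma on log2 FPKM also called no member higher. The median log2 fold change was -0.19 over the 27 members and -0.003 over all genes tested, with 21 members below 0 and 6 above.

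The FPKM ranges of the groups did not overlap for 4 members, all lower in the KO-labelled libraries (Hoxa3, Hoxa6, Hoxa7 and Hoxc9). These are 14.8% of the 27, against 7.08% of all genes lower and 16.4% higher. In whole tissue, fewer cells that express a gene and less RNA per cell cannot be told apart.

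**Figure D2:**
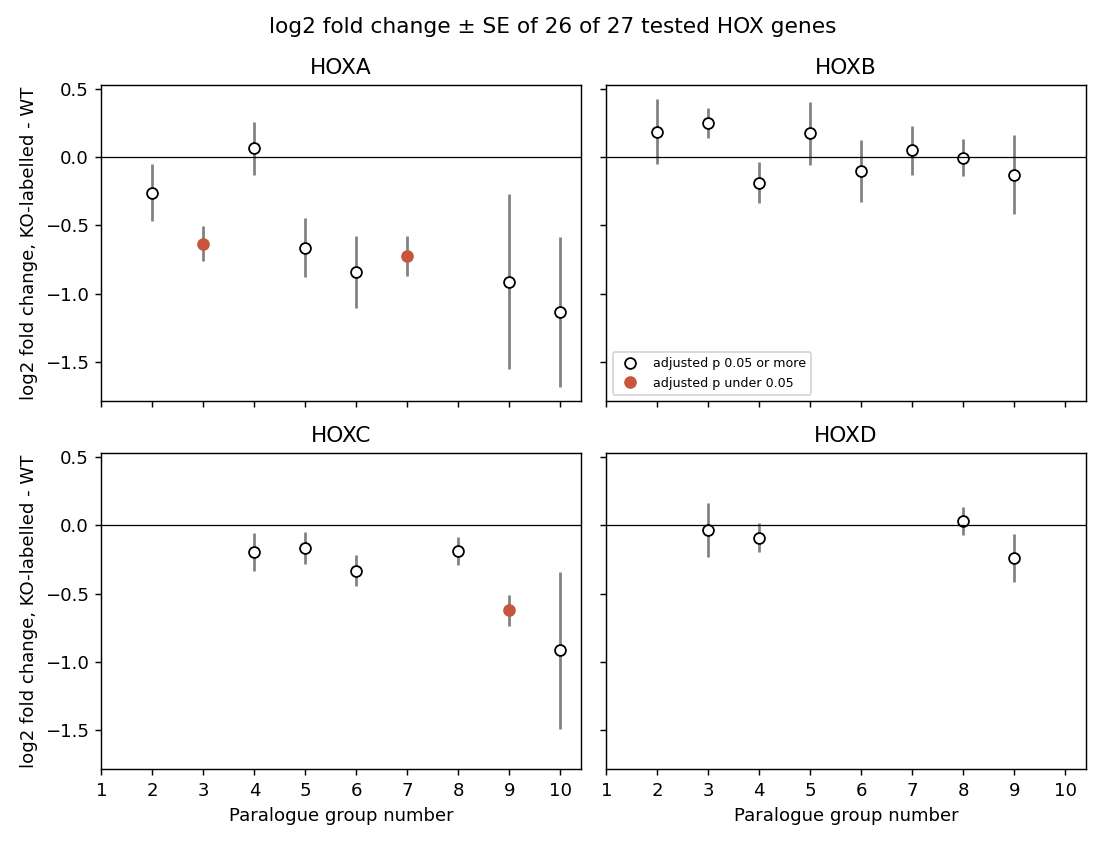
Log2 fold change of 26 of the 27 tested HOX genes, KO-labelled against WT (y axis; points with bars of 1 SE), by paralogue group number (x axis) in a panel for each cluster. Filled points passed an adjusted p of 0.05 (Hoxa3, Hoxa7 and Hoxc9); the HOXB and HOXD points lie between -0.24 and 0.25.

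The HOXA genes held the 2 members of the cluster that fell, Hoxa3 and Hoxa7, and the tested member nearest to the threshold, Hoxa6. The summed HOXA level was 41.9, 31.7, 32.8 and 32.9 FPKM in the WT libraries and 28.7, 24.5, 21.6 and 21.2 FPKM in the KO-labelled libraries, and the highest KO-labelled library lay below the lowest WT library. Sums were not tested. The mean sum was 34.9 ± 4.74 FPKM (WT) and 24.01 ± 3.43 FPKM (KO-labelled) (SD, n = 4 each). Of 9 tested HOXA genes 8 had a log2 fold change below 0, against 50.5% of all genes tested, with a median of -0.66, and 2 fell, against 8.05% of all genes. The share of HOXA in all HOX FPKM averaged 16.8% in WT and 12.99% in the KO-labelled libraries.

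Hoxa3, which patterns the thymus and the parathyroid glands, was at 6.20, 4.71, 5.55 and 6.13 FPKM in the WT libraries and 4.00, 4.04, 4.09 and 3.10 FPKM in the KO-labelled libraries. All 4 KO-labelled libraries were below all WT libraries, and replicate 5 was the lowest of them. The log2 fold change was -0.63 ± 0.13, and the fold had a 95% interval of 0.528 to 0.787 (edgeR, adjusted p = 0.0130).
Hoxa7, a mid-cluster gene of the trunk, was at 9.40, 7.75, 9.12 and 9.70 FPKM in the WT libraries and 7.05, 6.27, 5.19 and 4.32 FPKM in the KO-labelled libraries. The groups again did not overlap, and the log2 fold change was -0.72 ± 0.15, and the 95% interval of the fold was 0.484 to 0.761 (edgeR, adjusted p = 0.0129). At the threshold of 0.05 both genes passed in each alternative run, with the exception of the fit that took the replicate number as a block, where the log2 fold changes were -0.56 ± 0.15 for Hoxa3 and -0.62 ± 0.16 for Hoxa7 (edgeR, adjusted p = 0.0994 and 0.0958).

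Hoxa5, a gene of the lung and of fat inside the abdomen, was at 12.8, 8.68, 9.30 and 6.81 FPKM in the WT libraries and 8.55, 5.15, 6.19 and 4.97 FPKM in the KO-labelled libraries. WT replicate 1 was the highest and WT replicate 4 was below KO-labelled replicate 1, so the groups overlapped. The log2 fold change was -0.66 ± 0.22 (edgeR, adjusted p = 0.0630). Hoxa6 was at 3.64, 3.57, 3.72 and 3.79 FPKM in the WT libraries and 3.20, 2.0, 1.27 and 2.08 FPKM in the KO-labelled libraries. Its WT libraries lay close together and above each KO-labelled library, with a log2 fold change of -0.84 ± 0.26 (edgeR, adjusted p = 0.0518). Neither gene passed in this fit of all 8 libraries. With a library left out, both passed only without KO-labelled replicate 1, at -0.85 for Hoxa5 (edgeR, adjusted p = 0.0353) and -1.09 for Hoxa6 (edgeR, adjusted p = 0.0289). Without WT replicate 1 the value of Hoxa5 was -0.47 (edgeR, adjusted p = 0.138), and over all libraries left out Hoxa6 ranged from -0.65 to -1.09, with adjusted p up to 0.111. Both genes passed in DESeq2, which called 10.7% of all genes lower and 12.5% higher, and Hoxa6 also in limma-voom and in limma on log2 FPKM. It has the shortest transcript of the members, 699 bases, and its expected counts were 34, 33, 35 and 35 in WT and 30, 19, 12 and 19 in the KO-labelled libraries, so its levels rest on few reads.

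Hoxa2 and Hoxa4 showed no such gap. Hoxa2, which patterns the second branchial arch, was at 1.40, 1.09, 0.99 and 1.01 FPKM in the WT libraries and 1.0, 1.11, 0.99 and 0.82 FPKM in the KO-labelled libraries. Hoxa4 was at 3.63, 3.68, 2.74 and 2.55 FPKM in the WT libraries and 3.87, 3.78, 2.44 and 3.65 FPKM in the KO-labelled libraries, and it was the only tested HOXA gene with a fold change above 0, at 0.06 ± 0.19. Both overlapped between the groups, with 95% intervals of the fold of 0.606 to 1.15 for Hoxa2 and 0.776 to 1.40 for Hoxa4. In the RefSeq annotation of GRCm38.p6 the span of Hoxa3 overlaps those of Hoxa4, Hoxa5 and Hoxa6. Hoxa3, Hoxa5 and Hoxa6 lie on the same strand, so use of strand would not tell their reads apart. How reads in the overlaps were assigned is not stated, and they may have been counted for either gene.

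**Figure D3:**
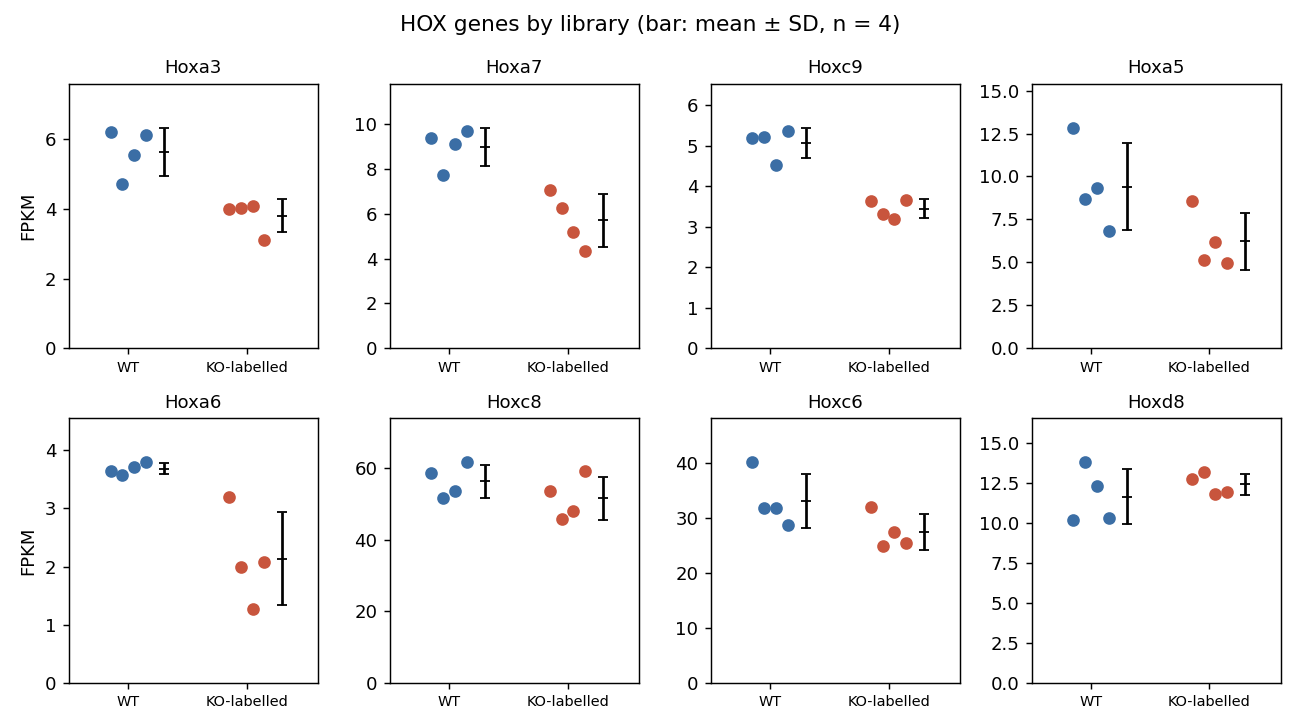
FPKM (y axis, from 0) of Hoxa3, Hoxa7, Hoxc9, Hoxa5, Hoxa6, Hoxc8, Hoxc6 and Hoxd8, with a point for each library and a bar for the mean ± SD of 4 libraries per group. The points of Hoxa3, Hoxa7, Hoxc9 and Hoxa6 do not overlap between WT and KO-labelled libraries, and those of Hoxa5, Hoxc8, Hoxc6 and Hoxd8 do.

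The HOXC cluster was the most abundant. Its summed level was 129, 113, 112 and 117 FPKM in the WT libraries and 113, 97.8, 99.05 and 105 FPKM in the KO-labelled libraries, with the ranges of the groups overlapping, and its share of all HOX FPKM averaged 57.0% in WT and 56.2% in the KO-labelled libraries. All 6 tested HOXC genes had a log2 fold change below 0, and 1 of them, Hoxc9, fell (50.5% and 8.05% of all genes). Hoxc9, a gene known from subcutaneous fat of mice, was at 5.20, 5.21, 4.52 and 5.36 FPKM in the WT libraries and 3.63, 3.31, 3.18 and 3.65 FPKM in the KO-labelled libraries. The groups were apart by more than the range within either, with a log2 fold change of -0.62 ± 0.11, a 95% interval of the fold of 0.544 to 0.776 and the smallest adjusted p of the members (0.00875, edgeR).

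Hoxc8, which has been tied to the white identity of fat precursors, was at 58.6, 51.5, 53.4 and 61.5 FPKM in the WT libraries and 53.5, 45.7, 47.9 and 59.1 FPKM in the KO-labelled libraries. The groups overlapped, with a log2 fold change of -0.19 ± 0.10 and a 95% interval of the fold of 0.747 to 1.03 (edgeR, adjusted p = 0.210). Hoxc6 was at 40.05, 31.7, 31.7 and 28.6 FPKM in the WT libraries and 32.02, 24.8, 27.4 and 25.4 FPKM in the KO-labelled libraries. The KO-labelled replicate 1 was higher than 3 of the WT libraries, and the log2 fold change was -0.33 ± 0.11 (edgeR, adjusted p = 0.0701). Both leading genes of the fat pad thus stayed above 24 FPKM in every library.

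Hoxc4 was at 11.95, 12.6, 11.8 and 12.4 FPKM in the WT libraries and 13.1, 12.02, 11.8 and 7.59 FPKM in the KO-labelled libraries. KO-labelled replicate 5 was the lowest and the others lay beside the WT values. Hoxc5 was at 10.8, 11.2, 9.60 and 8.75 FPKM in the WT libraries and 10.1, 11.2, 8.53 and 7.75 FPKM in the KO-labelled libraries, with overlapping groups. The log2 fold changes were -0.20 ± 0.14 for Hoxc4 and -0.17 ± 0.12 for Hoxc5, and neither passed (edgeR, adjusted p = 0.332 and 0.342).

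No HOXB gene of 8 tested was called, against 18.3% of all genes, and 0 calls among so few genes do not set the cluster apart. The 9 HOXB genes summed to 36.8, 27.1, 31.8 and 24.4 FPKM in the WT libraries and 36.9, 33.8, 30.2 and 28.05 FPKM in the KO-labelled libraries, with overlapping groups. Of the 8 tested, 4 had a log2 fold change above 0 and 4 below, with a median of 0.02, and the share of HOXB in all HOX FPKM averaged 14.4% in WT and 17.5% in the KO-labelled libraries. By edgeR 1 gene, Hoxb3, had an unadjusted p under 0.05, against 18.7% of all genes higher and 16.6% lower. DESeq2, limma-voom and limma on log2 FPKM called 0 HOXB genes.

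Hoxb3, an anterior gene of the hindbrain and pharynx, was at 4.47, 3.65, 3.86 and 4.14 FPKM in the WT libraries and 4.36, 5.51, 5.29 and 4.83 FPKM in the KO-labelled libraries. The KO-labelled libraries were mostly higher but overlapped with WT, with a log2 fold change of 0.25 ± 0.11 (edgeR, adjusted p = 0.129). Hoxb2 was at 3.57, 2.60, 4.38 and 2.52 FPKM in the WT libraries and 5.27, 3.97, 3.66 and 2.65 FPKM in the KO-labelled libraries, with a 95% interval of the fold of 0.789 to 1.64. Hoxb4, known from blood stem cells, was at 6.47, 4.61, 5.61 and 3.99 FPKM in the WT libraries and 5.47, 4.68, 4.65 and 4.17 FPKM in the KO-labelled libraries. Both ranged more within a group than between the groups.

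Hoxb5, a gene of the enteric nervous system, was at 6.68, 3.70, 4.56 and 3.98 FPKM in the WT libraries and 7.72, 5.75, 4.46 and 4.42 FPKM in the KO-labelled libraries. Hoxb6 was at 7.57, 4.96, 5.89 and 3.51 FPKM in the WT libraries and 6.97, 4.90, 4.53 and 4.93 FPKM in the KO-labelled libraries. WT replicate 1 and KO-labelled replicate 1 were the highest libraries of their groups for both genes. Hoxb7 was at 4.64, 3.72, 4.00 and 2.99 FPKM in the WT libraries and 4.13, 4.92, 4.36 and 3.14 FPKM in the KO-labelled libraries. Hoxb8, known from myeloid cells, was at 2.46, 2.59, 2.59 and 1.96 FPKM in the WT libraries and 2.38, 2.42, 2.33 and 2.87 FPKM in the KO-labelled libraries. Its log2 fold change of -0.0046 ± 0.13 turned above 0 in 4 other scalings or units, and the values of both groups lay between 1.96 and 2.87 FPKM. Hoxb9 was at 0.93, 1.28, 0.87 and 1.29 FPKM in the WT libraries and 0.62, 1.61, 0.89 and 1.04 FPKM in the KO-labelled libraries, the lowest HOXB gene with a mean of at least 1 FPKM. The 95% intervals of the fold were 0.788 to 1.61 for Hoxb5, 0.656 to 1.32 for Hoxb6 and 0.781 to 1.37 for Hoxb7. They were 0.810 to 1.23 for Hoxb8 and 0.583 to 1.43 for Hoxb9. Changes within these limits are not excluded by these data.

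No HOXD gene of 4 tested was called either, against 18.3% of all genes. None had an unadjusted p under 0.05 in edgeR, against 18.7% of all genes higher and 16.6% lower. None passed in DESeq2, limma-voom or limma on log2 FPKM. With 4 genes tested, 0 calls do not set the cluster apart from all genes. The 7 HOXD genes summed to 21.8, 28.4, 26.6 and 20.4 FPKM in the WT libraries and 24.1, 25.9, 23.8 and 24.02 FPKM in the KO-labelled libraries, with the KO-labelled values inside the range of WT. Hoxd8, the most abundant of them, was at 10.2, 13.8, 12.3 and 10.3 FPKM in the WT libraries and 12.7, 13.2, 11.8 and 11.9 FPKM in the KO-labelled libraries. Its log2 fold change was 0.03 ± 0.10, with a 95% interval of the fold of 0.872 to 1.20. The 4 KO-labelled values lay within the WT range, so the gene differed by less than the spread between replicates.

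Hoxd4 was at 6.43, 7.99, 8.13 and 5.95 FPKM in the WT libraries and 6.85, 6.70, 7.15 and 7.20 FPKM in the KO-labelled libraries. Hoxd9 was at 2.78, 4.24, 3.68 and 2.45 FPKM in the WT libraries and 2.89, 3.36, 2.79 and 2.56 FPKM in the KO-labelled libraries. Hoxd3 was at 1.95, 1.85, 2.26 and 1.35 FPKM in the WT libraries and 1.37, 1.98, 1.95 and 2.24 FPKM in the KO-labelled libraries. For all 3 the groups overlapped, and the 95% intervals of the fold were 0.796 to 1.10 for Hoxd4, 0.644 to 1.11 for Hoxd9 and 0.719 to 1.33 for Hoxd3. The spans of Hoxd3 and Hoxd4 overlap in the RefSeq annotation, as do those of Hoxb3 and Hoxb4.

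The called genes were set beside their paralogues, and group 8, which holds no called gene, is given as well. In group 9 the summed level of Hoxa9, Hoxb9, Hoxc9 and Hoxd9 was 10.4, 11.4, 9.37 and 10.1 FPKM in the WT libraries and 7.19, 8.92, 7.30 and 8.04 FPKM in the KO-labelled libraries, without overlap. Of the 4 genes only Hoxc9 passed. The log2 fold changes of the others were below 0 as well, at -0.91 ± 0.64 for Hoxa9, -0.24 ± 0.18 for Hoxd9 and -0.13 ± 0.29 for Hoxb9. In group 3, Hoxa3 fell while the log2 fold change was 0.25 ± 0.11 for Hoxb3 and -0.03 ± 0.20 for Hoxd3. In group 7, Hoxa7 fell while Hoxb7 had 0.05 ± 0.18. In group 8, the summed level was 71.3, 67.9, 68.3 and 73.8 FPKM in the WT libraries and 68.6, 61.3, 62.02 and 73.9 FPKM in the KO-labelled libraries, with overlapping groups. Differences between the fold changes of paralogues were not tested.

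Hoxa9 and the posterior genes (groups 10 to 13) rest on few reads, and for this reason they are given in expected counts. They are singled out here after their values were seen. Hoxc10, a gene of the hindlimb region and of subcutaneous fat, had counts of 58, 26, 13 and 21 in WT and 8, 19, 7 and 31 in the KO-labelled libraries. In FPKM it was at 2.14, 0.97, 0.48 and 0.79 FPKM in the WT libraries and 0.30, 0.69, 0.26 and 1.18 FPKM in the KO-labelled libraries, and WT replicate 1 was the highest of all 8. Hoxa9, known from blood cells, had counts of 68, 28, 14 and 45 in WT and 2, 30, 20 and 34 in the KO-labelled libraries. Hoxa10, a gene of the reproductive tract, had counts of 42, 24, 9 and 22 in WT and 3, 13, 10 and 20 in the KO-labelled libraries. WT replicate 1 was again the highest for both, and KO-labelled replicate 1 was the lowest. Log2 fold changes were -0.91 ± 0.57 for Hoxc10, -0.91 ± 0.64 for Hoxa9 and -1.13 ± 0.55 for Hoxa10, and none passed (edgeR, adjusted p = 0.284, 0.337 and 0.171). Without WT replicate 1 they were -0.36, -0.50 and -0.73 in the same order.

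Hoxa11, a gene of the limb and the reproductive tract, had counts of 14, 3, 3 and 1 in WT and 0, 0, 0 and 1 in the KO-labelled libraries. Hoxa13, the last HOXA gene, which marks the end of the limb and the hindgut, had counts of 13, 0, 0 and 1 in WT and 0, 0, 0 and 0 in the KO-labelled libraries. For Hoxa13, 13 of the 14 counts came from WT replicate 1, and the KO-labelled libraries were listed at 0, which allows up to 3 counts in a library or 0.164 FPKM. The antisense gene Hoxa11as, listed under its own identifier, had counts of 21, 2, 3 and 2 in WT and 0, 2, 1 and 4 in the KO-labelled libraries, and WT replicate 1 was the highest there too. Hoxa13 at 0.71 FPKM in that library was the highest value of the 7 members that were not tested. Hoxd10 had counts of 10, 12, 7 and 8 in WT and 5, 16, 2 and 1 in the KO-labelled libraries. Hoxb1, Hoxc11, Hoxd1 and Hoxd11 had at most 2 counts in any library.

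Tissues that could be taken with the fat pad were looked for by their markers. The 6 listed of 15 epididymis markers summed to 0.36 to 0.74 FPKM in WT replicates 1, 3 and 4, to 13.8 FPKM in WT replicate 2 and to 0.26 to 0.43 FPKM in the KO-labelled libraries. Crisp1, a protein secreted by the epididymis, made up 13.5 FPKM of the WT replicate 2 value. In WT replicate 1, which was the highest for Hoxa9, Hoxa10, Hoxa11, Hoxa13 and Hoxc10 but not for Hoxd10 or Hoxd11, the sum was 0.46 FPKM and Crisp1 was at 0.20 FPKM, and in WT replicate 2 Hoxa13 was listed at 0. The kidney tubule markers summed to 0.57 to 4.54 FPKM (WT) and 0.15 to 3.47 FPKM (KO-labelled), and the testis markers to 2.70 to 3.25 FPKM (WT) and 3.09 to 6.05 FPKM (KO-labelled). Most of the testis sum was Insl3, at 1.03 to 1.66 FPKM (WT) and 1.32 to 4.52 FPKM (KO-labelled), and Star, at 0.92 to 1.26 and 0.93 to 1.38 FPKM. Neither passed in edgeR, and no other testis marker was above 0.25 FPKM in any library. The skeletal muscle markers summed to 11.01 to 73.6 FPKM (WT) and 34.4 to 110.3 FPKM (KO-labelled), with WT replicate 1 the lowest of all. Acta1 made up most of this sum, at 7.99 to 72.6 FPKM (WT) and 32.7 to 108.4 FPKM (KO-labelled). No other muscle marker was above 1.69 FPKM in any library, and Ckm was highest in WT replicate 1, at 1.16 FPKM. The intestine markers summed to 0.36 to 0.47 FPKM (WT) and 1.34 to 3.03 FPKM (KO-labelled), without overlap. Of 2 tested, 1 rose, against 10.2% of all genes. It was Vil1, under 1 FPKM in every library, with a log2 fold change of 1.80 ± 0.45 (edgeR, adjusted p = 0.0265). Fabp2 had too few counts to be tested, at 0 to 0.15 FPKM (WT) and 0.31 to 1.69 FPKM (KO-labelled). Without WT replicate 1 the log2 fold changes of the called genes were -0.58 for Hoxa3, -0.70 for Hoxa7 and -0.61 for Hoxc9, with adjusted p of 0.0344, 0.0323 and 0.0245 in edgeR.

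**Figure D4:**
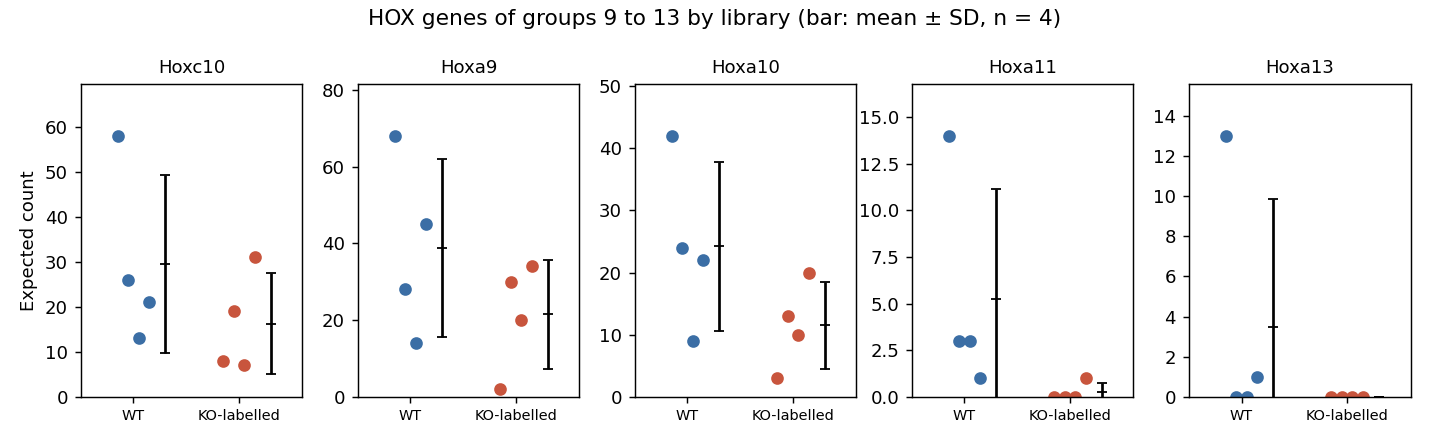
Expected counts (y axis, from 0) of Hoxc10, Hoxa9, Hoxa10, Hoxa11 and Hoxa13, with a point for each library and a bar for the mean ± SD of 4 libraries per group, cut off at 0. The highest point in each panel is WT replicate 1, with 58, 68, 42, 14 and 13 counts.

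Position is also recorded by factors outside the HOX clusters, and these were counted as a list. Of 17 depot position factors 10 were tested, 5 fell and none rose, against 8.05% and 10.2% of all genes, with a median log2 fold change of -0.61. Such genes were listed with earlier results of these data known, so the count is not independent evidence. Wt1, a factor of mesothelium and of precursors in visceral fat, was at 15.3, 9.28, 15.9 and 15.7 FPKM in the WT libraries and 4.07, 7.84, 7.31 and 4.66 FPKM in the KO-labelled libraries, with a log2 fold change of -1.30 ± 0.24 (edgeR, adjusted p = 0.0101). Gata6, a factor of abdominal organs and their linings, was at 12.2, 10.8, 12.9 and 11.4 FPKM in the WT libraries and 7.08, 8.51, 7.07 and 5.18 FPKM in the KO-labelled libraries, with -0.83 ± 0.13 (edgeR, adjusted p = 0.00380). In both, every KO-labelled library was below every WT library.

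Nr2f1, known from fat inside the abdomen, was at 4.79, 4.90, 4.37 and 5.10 FPKM in the WT libraries and 2.86, 3.89, 3.03 and 2.14 FPKM in the KO-labelled libraries, with a log2 fold change of -0.75 ± 0.16 (edgeR, adjusted p = 0.0150). Isl1, a LIM homeodomain factor, was at 1.72, 0.62, 0.77 and 1.44 FPKM in the WT libraries and 0.19, 0.28, 0.38 and 0.26 FPKM in the KO-labelled libraries, with -2.09 ± 0.40 (edgeR, adjusted p = 0.00988). The groups did not overlap in either gene. Osr1, a factor of the intermediate mesoderm, fell as well, by 0.70 on the log2 scale, with an SE of 0.19 (edgeR, adjusted p = 0.0341); it is the fifth of the list by p and is named to complete the 5. This call was lost on log2(FPKM + 1), at -0.60 (limma, adjusted p = 0.0512), and without WT replicate 1 or 4 or KO-labelled replicate 1, 4 or 5 (-0.58 to -0.76, with adjusted p up to 0.0892 in edgeR). Tcf21, a factor of visceral fat precursors, had -0.28 ± 0.16 and did not pass.

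Among genes known from fat under the skin, Tbx15, Shox2 and En1 were under 1 FPKM in every library, while Hoxc9 was at 3.18 to 5.36 FPKM and Hoxc10 at 0.26 to 2.14 FPKM. Tbx15 reached at most 0.06 FPKM, Shox2 0.62 FPKM and En1 0.27 FPKM in any of the 8 libraries. Zic1 and Lhx8, known from brown fat and its precursors and from neurons, reached at most 0.02 and 0.04 FPKM. Tbx15, Shox2, En1, Zic1 and Lhx8 were named after their values were seen.

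Wt1 is itself expressed in mesothelium, the lining of the fat pad. None of the 11 listed mesothelium markers passed in edgeR, where 6 were lower at an unadjusted p under 0.05, against 16.6% of all genes. DESeq2 called 4 lower, against 10.7% of all genes, while limma-voom called 0. The median log2 fold change of the 11 markers was -0.64. The part of mesothelium in the lower Wt1, Gata6 or HOX values was not tested. The 12 markers of fat precursors and fibroblasts summed to 1552 to 1748 FPKM (WT) and 1374 to 1644 FPKM (KO-labelled), with 5 that rose and 1, Dcn, that fell. Dcn made up much of the sum, with means of 1019 FPKM (WT) and 696 FPKM (KO-labelled). The median log2 fold change of these markers was 0.24. Over all genes 10.2% rose and 8.05% fell at an adjusted p of 0.05 in edgeR, which is the background of the counts of markers that rose or fell. The 10 adipocyte markers summed to 33242 to 37789 FPKM (WT) and 31021 to 40417 FPKM (KO-labelled), with 2 that fell, and 6 of 8 endothelial and 3 of 8 macrophage markers rose. No lymphocyte marker of 6 tested passed in edgeR, with 2 higher at an unadjusted p under 0.05, against 18.7% of all genes. None of them passed in DESeq2 or limma-voom.

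The cofactors of HOX proteins were counted next. Of 8 tested TALE genes 2 fell and none rose, against 8.05% and 10.2% of all genes, with a median of -0.11. Meis1 was at 7.99, 5.57, 5.6 and 5.29 FPKM in the WT libraries and 4.51, 4.32, 4.44 and 3.01 FPKM in the KO-labelled libraries, with a log2 fold change of -0.66 ± 0.17 (edgeR, adjusted p = 0.0270). Meis2 was at 5.47, 3.45, 5.54 and 5.17 FPKM in the WT libraries and 3.22, 3.56, 3.37 and 2.31 FPKM in the KO-labelled libraries, with -0.73 ± 0.18 (edgeR, adjusted p = 0.0245). The Meis1 groups did not overlap, while KO-labelled replicate 2 lay above WT replicate 2 for Meis2. The Meis1 call was lost without KO-labelled replicate 2, 4 or 5 (log2 fold changes of -0.54 to -0.70), and the Meis2 call without WT replicate 1, 3 or 4 or KO-labelled replicate 1 or 5 (-0.61 to -0.74). Pbx2 (-0.18 ± 0.07) and Meis3 (0.26 ± 0.11) did not pass.

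**Figure D5:**
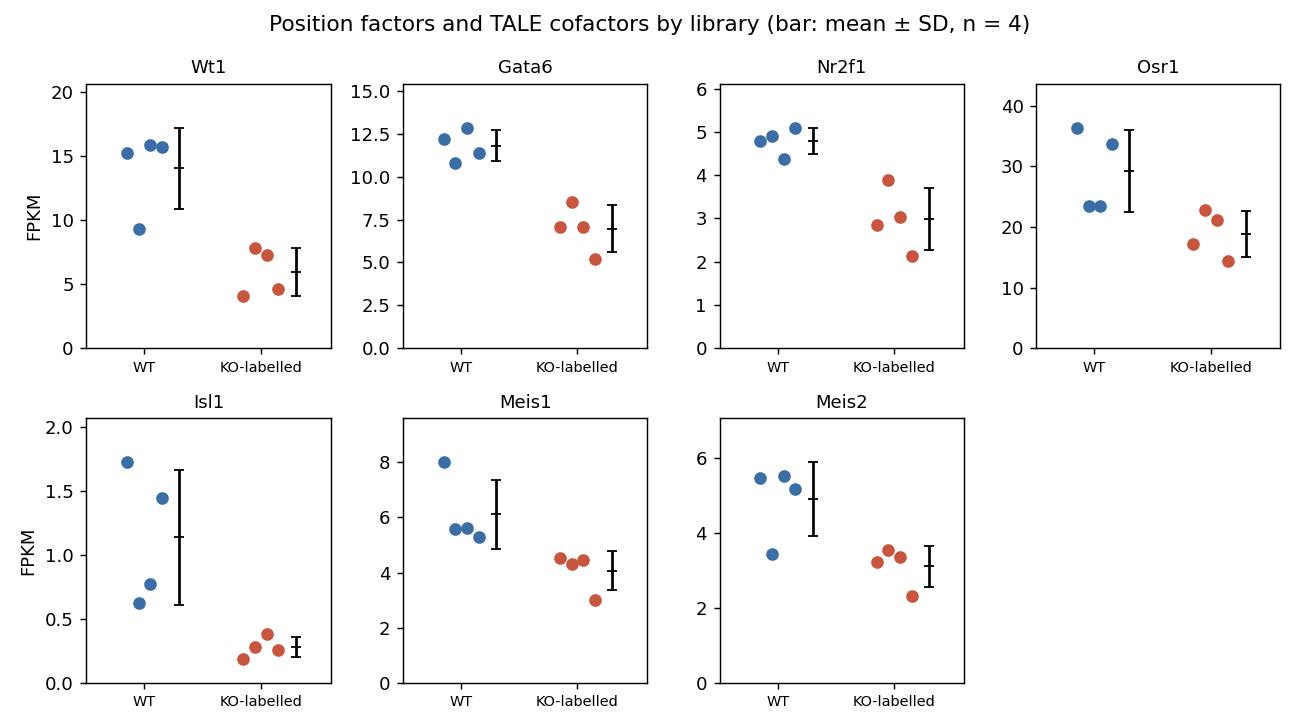
FPKM (y axis, from 0) of Wt1, Gata6, Nr2f1, Osr1, Isl1, Meis1 and Meis2, with a point for each library and a bar for the mean ± SD of 4 libraries per group. In Wt1, Gata6, Nr2f1, Osr1, Isl1 and Meis1 every KO-labelled point is below every WT point, and in Meis2 the groups overlap.

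Genes that flank the clusters served as neighbours outside the HOX family. Of 16 tested, 1 fell and none rose, against 8.05% and 10.2% of all genes, with a median of -0.04. Among these, the position factors, the TALE genes and the Trithorax genes, where no gene rose in edgeR, 1 gene, Meis3, was higher at an unadjusted p under 0.05, and DESeq2, limma-voom and limma on log2 FPKM called 0 higher. Atp5g2, a subunit of the mitochondrial ATP synthase beside HOXC, lay at 203 ± 24.3 FPKM (WT) and 155 ± 5.31 FPKM (KO-labelled) (SD, n = 4 each), with a log2 fold change of -0.45 ± 0.09 (edgeR, adjusted p = 0.0137). Its paralogues Atp5g1 beside HOXB (-0.25 ± 0.08) and Atp5g3 near HOXD (-0.41 ± 0.13) did not pass, nor did Hnrnpa1 near HOXC (-0.38 ± 0.14).

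Chromatin regulators of the clusters were counted in the same way. Of 28 tested Polycomb genes 1 fell and 1 rose, against 8.05% and 10.2% of all genes, with a median of -0.03. Rbbp7, a histone-binding subunit shared with other complexes, fell, with -0.31 ± 0.08 (edgeR, adjusted p = 0.0325). This call was lost without WT replicate 1, 3 or 4 or KO-labelled replicate 1, 4 or 5, with log2 fold changes of -0.26 to -0.32 and adjusted p up to 0.0834 in edgeR, and also with library size alone and on both log2 FPKM scales. Phf19, which binds methylated histone H3, rose from a level under 1 FPKM, with 0.75 ± 0.22 (edgeR, adjusted p = 0.0422). Its call was lost without any one library other than WT replicate 1 (0.67 to 0.82, with adjusted p up to 0.102) and without the filter on low counts. Rbbp4 (-0.27 ± 0.09), Bmi1 (-0.20 ± 0.06) and Phc1 (-0.25 ± 0.08) did not pass.

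Of 14 tested Trithorax genes and H3K27 demethylases, 1 fell and none rose, against 8.05% and 10.2% of all genes, with a median of -0.14. Dot1l, the methyltransferase of H3 lysine 79, fell; its means were 22.1 ± 2.67 FPKM (WT) and 16.4 ± 0.848 FPKM (KO-labelled) (SD, n = 4 each) and its log2 fold change was -0.50 ± 0.10 (edgeR, adjusted p = 0.0102). Wbp7 (-0.24 ± 0.08), Kdm6a (-0.20 ± 0.08) and Psip1 (-0.21 ± 0.08) did not pass.

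Retinoic acid switches on HOX genes in order in the embryo. Of 15 tested genes of its pathway 1 fell and 1 rose, against 8.05% and 10.2% of all genes, with a median of -0.01. Aldh1a3, an enzyme that makes retinoic acid, rose; its means were 8.37 ± 1.44 FPKM (WT) and 13.02 ± 1.21 FPKM (KO-labelled) (SD, n = 4 each) and its log2 fold change was 0.57 ± 0.12 (edgeR, adjusted p = 0.0155). Stra6, a receptor for the retinol carrier, fell at levels under 1 FPKM in every library, with -2.59 ± 0.46 (edgeR, adjusted p = 0.00747). Rxrg (-0.45 ± 0.14), Dhrs3 (-0.17 ± 0.07) and Rxra (-0.17 ± 0.07) did not pass.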

How the data were processed

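The members and gene lists were chosen with earlier results of these data known. Each library's table, as deposited, gave for every gene an expected count, an FPKM value and a transcript length, per the file headers. The submitters' processing notes name Bowtie2 and the genome build mm9, and the sources used here name no quantifier. Trizol extraction and paired reads on the BGISEQ-500 are stated in the labels' protocols.

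After rounding, the expected counts went into edgeR 4.0.16 under R 4.3.3 (filterByExpr, TMM scaling, glmQLFit with robust=TRUE, glmQLFTest, two-sided, genotype alone), with Benjamini-Hochberg adjustment over the 14257 genes kept. SE is the log2 fold change divided by the square root of F. In simulated data, 200 of 14257 genes were changed, by 1 or 2 on the log2 scale. Of these, 81.8% were called at a size of 1 and 94.6% at 2, and 5.32% of the calls were unchanged genes. Changes below 1, such as those of the called HOX genes, were not simulated. Alternatives used DESeq2 1.42.0, limma 3.58.1 on counts (voom) and on log2(FPKM + 1) or log2(FPKM + 0.1), other scalings and filters, a replicate block, and each library left out. Expected counts per library summed to 14064681 to 14700114. Values of 1 HOX gene and 1 cofactor, both kept in the fits and counts, are not reported here. Other members with at least 1 FPKM in a group, members that passed and, per related list, up to 4 genes of lowest p were named, and Tcf21, Osr1, Phf19, Stra6, Crisp1, Hoxa11as and the factors near 0 were added after their values were seen. Hoxb13, Hoxc12, Hoxc13, Hoxd12 and Hoxd13, which the same pattern finds in RefSeq, were not listed under these symbols in any library. They are therefore not among the members. Coordinates and promoters are from RefSeq GRCm38.p6, another build than that of the files, and were matched by gene number. Protein sequences, planned at the outset, were not used here. Floors cover counting error only.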

Additional observations from a re-analysis of the deposited data

Results flagged for a closer look

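In 6 of 58 sets of 4 libraries (a HOX gene in a group), 1 library stood apart from the other 3 by Dixon's test at the 95% level, which chance does in about 1 of 20. Sets were tested where a library had at least 10 expected counts, a minimum set after seeing the data. The WT sets of Hoxa11 and Hoxa13 met it only through WT replicate 1, the library that then stood apart. The count of flagged sets therefore cannot be judged against that chance rate. KO-labelled replicate 5 was the lowest of its group for Hoxa3, at 3.10 FPKM, and the highest for Hoxb8, at 2.87 FPKM. KO-labelled replicate 4 was the lowest for Hoxa4, at 2.44 FPKM, and KO-labelled replicate 1 the highest for Hoxb6, at 6.97 FPKM. WT replicate 1 was the highest of its group for Hoxa11, at 0.43 FPKM, and for Hoxa13, at 0.71 FPKM.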

How the results depend on the processing

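The count of HOX genes lower in the KO-labelled libraries was 3, with 1 at an adjusted p of 0.01, 6 at 0.1, 5 by DESeq2 and 3 to 5 with a library left out; 5 came without KO-labelled replicate 1. The count of all genes called was 2606, with 551 and 4178 at those thresholds and 1172 to 3683 with a library left out. The related lists gave 13 calls, with 3 and 24 at those thresholds, 21 by DESeq2 and 9 to 20 with a library left out. No setting called a HOX gene higher.

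Hoxa3, Hoxa7 and Hoxc9 kept their direction and passed in 54 of 54 values without the replicate block. The groups share 3 replicate numbers, whose deviations correlated by 0.01, -0.07 and -0.13. None of these 3 WT libraries correlated best with the KO-labelled library of its own number. With so few pairs, these values cannot decide whether the numbers pair the libraries. With the number as a replicate block, 3 pairs of libraries gave 141 calls over all genes, 0 in the related lists and 0 HOX genes lower; the log2 fold changes were -0.56 for Hoxa3, -0.62 for Hoxa7 and -0.72 for Hoxc9. At an unadjusted p under 0.05 in this edgeR fit, 8 HOX genes were lower and 1 was higher, against 10.98% and 14.3% of all genes.

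Signs changed in genes that had not passed, and the cause was not tested. Hoxb8 went to 0.012 with upper quartile factors, 0.061 with library size alone, and 0.044 and 0.060 on log2(FPKM + 1) and log2(FPKM + 0.1). Under the last 3, Hoxd3 went to 0.031, 0.017 and 0.025 and Abcc4 to 0.018, 0.028 and 0.035. With the block, Hoxa4 went to -0.050 and Abcc4 to 0.015. With a library left out, values ranged from -0.26 to 0.096 for Hoxb6, -0.083 to 0.030 for Hoxb8, -0.027 to 0.11 for Hoxd8, -0.019 to 0.20 for Hoxa4, -0.15 to 0.098 for Hoxd3, -0.049 to 0.15 for Hoxb7, -0.015 to 0.39 for Hoxb5 and -0.41 to 0.057 for Hoxb9. Members near 1 FPKM rest on as few as 7 expected counts in a library, so only large changes of these were detectable.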
